A study of Mus musculus with 6 samples.

Results

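DNA replication licensing and fork genes are the genes whose proteins mark replication origins, load the helicase, fire origins and copy DNA at the fork. A fixed list of 40 such genes was followed in germinal centre B cells made in culture, and all 40 were found once in each table of 23850 gene entries. All 40 also reached the limit on level for testing, a mean of 1 FPKM over the 6 libraries, which 10096 entries passed. FPKM is a fragment count scaled for transcript length and library total. The libraries were 3 from cells given the GSK3 inhibitor CHIR99021 at 3 uM and 3 from cells given its solvent DMSO. Every library came from wild type C57BL/6J cells. Naive follicular B cells had been grown on CD40L-expressing feeder cells with IL-4 at 1 ng/ml for 4 days, and both treatments lasted 36 h on the same kind of feeder with IL-21 at 10 ng/ml. The cells are thus a culture model with feeder-cell contact in both groups, and were purified before RNA was taken. The series calls the libraries biological triplicates, and the set-up of the replicate cultures is not described further.

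Before S phase, the origin recognition complex (ORC) binds origins, and CDC6 and CDT1 help it to load the ring-shaped MCM2-7 helicase, a step called licensing. Geminin blocks CDT1 so that origins are licensed once per cycle. The kinase CDC7 then acts on loaded MCM2-7, CDC45 and the GINS complex join it to form the active helicase, and polymerase alpha with primase starts each strand. Polymerase epsilon extends the leading strand and polymerase delta the lagging strand, on a PCNA clamp that the RFC complex loads, and FEN1 and DNA ligase I process and join Okazaki fragments. Many of these genes are transcribed in late G1 under E2F factors. Germinal centre B cells are among the fastest dividing cells of the body, so these genes are active there.

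Promoters of these genes are known for E2F sites, and the words TTTCCCGC, TTTGGCGC, TTTGCCGC and TTTCGCGC were searched for on both strands. The windows were RefSeq promoters of build GRCm38.p6 (the assembly also named mm10), which lie mostly upstream of an annotated start and run a short way past it. Of 32 members with a window, matched by symbol, 14 held such a word (43.75%), against 704 of 27025 genes (2.605%). The 27025 genes outnumber the 10096 entries tested here, so unlike the members they include genes that did not reach the limit on level. The mitosis-type words TTTGAA and TTCGAA were in 8 of the 32 members (25%) and in 5854 of the 27025 genes (21.7%). The following windows are those of the polymerase subunit genes Pole2 (chr12:69228141-69228440, minus strand) and Pold1 (chr7:44548766-44549065, minus strand), shown because their levels moved in opposite directions while each window held 1 E2F word, in Pold1 near the window's downstream end. Capitals mark the E2F words, read 5′ to 3′ along the gene, in either orientation.
Pole2: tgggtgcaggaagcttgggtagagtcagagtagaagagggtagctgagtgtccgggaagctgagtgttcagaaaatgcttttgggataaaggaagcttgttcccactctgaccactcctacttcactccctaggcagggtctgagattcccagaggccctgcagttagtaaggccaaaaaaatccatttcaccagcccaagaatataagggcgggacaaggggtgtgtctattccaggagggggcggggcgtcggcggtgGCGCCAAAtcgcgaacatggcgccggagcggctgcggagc
Pold1: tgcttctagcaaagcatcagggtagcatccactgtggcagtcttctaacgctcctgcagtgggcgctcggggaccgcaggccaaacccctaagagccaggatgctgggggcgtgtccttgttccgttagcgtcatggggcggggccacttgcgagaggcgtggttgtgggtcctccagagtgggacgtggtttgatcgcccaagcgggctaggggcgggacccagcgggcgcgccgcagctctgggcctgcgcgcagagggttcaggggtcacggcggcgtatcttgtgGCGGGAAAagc

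Shorter stretches with 15 bases on either side of the outer words, cut at the window's end where that came earlier, show the same words in licensing genes. Capitals again mark the words, and Mcm5 and Mcm6 each hold a pair of overlapping words of opposite orientation, with a further word in Mcm6. The stretches lie at chr1:20820263-20820308 (Mcm3, minus strand), chr8:75109341-75109382 (Mcm5, plus strand), chr1:128359730-128359830 (Mcm6, minus strand), chr4:108579412-108579449 (Orc1, plus strand), chr4:34614961-34614998 (Orc3, minus strand), chr11:98907998-98908035 (Cdc6, plus strand) and chr8:122568032-122568064 (Cdt1, plus strand).
Mcm3: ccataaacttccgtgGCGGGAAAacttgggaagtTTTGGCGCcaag
Mcm5: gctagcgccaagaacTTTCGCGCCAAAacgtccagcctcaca
Mcm6: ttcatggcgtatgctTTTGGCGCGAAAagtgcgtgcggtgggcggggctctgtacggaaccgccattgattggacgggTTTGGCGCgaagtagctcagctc
Orc1: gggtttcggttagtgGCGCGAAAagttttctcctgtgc
Orc3: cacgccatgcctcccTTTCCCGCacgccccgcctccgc
Cdc6: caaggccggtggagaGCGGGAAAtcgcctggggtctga
Cdt1: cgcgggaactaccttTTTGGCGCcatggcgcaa
A word is a match of letters and not a measured binding site. Words were also found in Mcm7, Gins3, Pola1, Rfc3 and Lig1, which are not shown. The 14 members with a word had a median log2 change of -0.04 and the 18 without had 0.05. The 8 members with no window, Gmnn, Mcm4, Gins1, Gins2, Gins4, Prim2, Pole and Rfc2, were not searched and are in neither set.

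The libraries had summed FPKM of 556643.5 to 616426.6 with CHIR99021 and 527290.2 to 617449.0 with DMSO. The upper quartile of genes above 0 was 18.0 FPKM in CHIR99021 library 1 and 20.1 to 21.2 FPKM in the other 5. The number of fragments sequenced is unknown from FPKM, but the authors' confidence limits lay at a median of 12.5% to 15.4% of a gene's value on either side, and at most 24.3% for any of the 40 genes in any library. As a check of identity, all 7 B cell markers were detected in every library, and all 7 fell with CHIR99021, with summed levels of 1393 to 1625 FPKM against 2760 to 3614 FPKM with DMSO. Of 5 plasma cell markers, Irf4 and Prdm1 were called higher, that is with an adjusted p under 0.05 in limma's test, Irf4 with 82.1 FPKM with CHIR99021 and 30.5 FPKM with DMSO on average. The other 3 did not pass, Jchain having 289 FPKM with CHIR99021 and 452 FPKM with DMSO, and the 5 summed to 471 to 588 FPKM with CHIR99021 and 489 to 766 FPKM with DMSO. Of the germinal centre markers, Rgs13 was under 1 FPKM in both means, and Fas was called lower. The 8 T cell markers summed to 38.9 to 54.4 FPKM with CHIR99021 and 50.4 to 75.5 with DMSO, with none called and Cd3e at 0 in all libraries. Nearly all of that sum was Cd2 (means 31.6 FPKM with CHIR99021 and 48.3 with DMSO) and Lck (12.2 and 14.4). The other T cell markers were under 1 FPKM in both means. The 8 myeloid markers summed to 62.8 to 72.7 and 60.2 to 74.1, with Itgam called lower and Cd14 at 0. Most of the myeloid sum was Cybb (means 61.9 FPKM with CHIR99021 and 60.4 with DMSO). Fibroblast markers were present at 54.8 to 235 summed FPKM with CHIR99021 and 75.2 to 307 with DMSO, led by the collagen gene Col1a1. Its level fell with the replicate number in both groups. Libraries 1 to 3 had 165, 65.3 and 33.3 FPKM with CHIR99021, and 202, 69.2 and 36.2 FPKM with DMSO. Of the 9 fibroblast markers, Thy1 alone was called, lower with CHIR99021. The part of other cells' RNA in the results was not tested. Gsk3a and Gsk3b, which encode the kinases that CHIR99021 inhibits, did not pass the test (adjusted p = 0.643 and 0.209).

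For most genes of the replication machinery no change with CHIR99021 passed the test. A gene was called changed when limma's test on log2(FPKM + 1), over all 10096 genes, gave an adjusted p under 0.05. By this rule 4 of the 40 genes changed (10.0%), against 2164 of all genes (21.4%). Those called higher with CHIR99021 were Pole2 and Fen1 (2 of 40, against 8.13% of all genes), and those called lower were Rfc2 and Pold1 (2 of 40, against 13.3% of all genes). The median log2 change of the 40 genes was -0.01, beside -0.04 for all genes tested, and the median size of change regardless of sign was 0.13 beside 0.23. All log2 changes here are on the log2(FPKM + 1) scale, while folds are ratios of mean FPKM. In these bulk libraries, fewer cells in cycle and less RNA of a gene per cell cannot be told apart.

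For the 36 genes that did not pass, the measured changes ran from -0.28 to 0.47. Their 95% intervals, not adjusted for the number of genes tested, together ran from -0.57 to 0.88. Intervals lay within a doubling or halving (1 log2 unit) for 39 of the 40 genes, Pole2 being the exception. A change of under 0.2 in size was measured for 28 of 40. The treated and control libraries did not overlap for 14 of the 40 genes (35.0%), against 40.1% of all genes. Of these 6 were higher (17.0% of all genes) and 8 lower (23.1% of all genes).

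**Figure D1:**
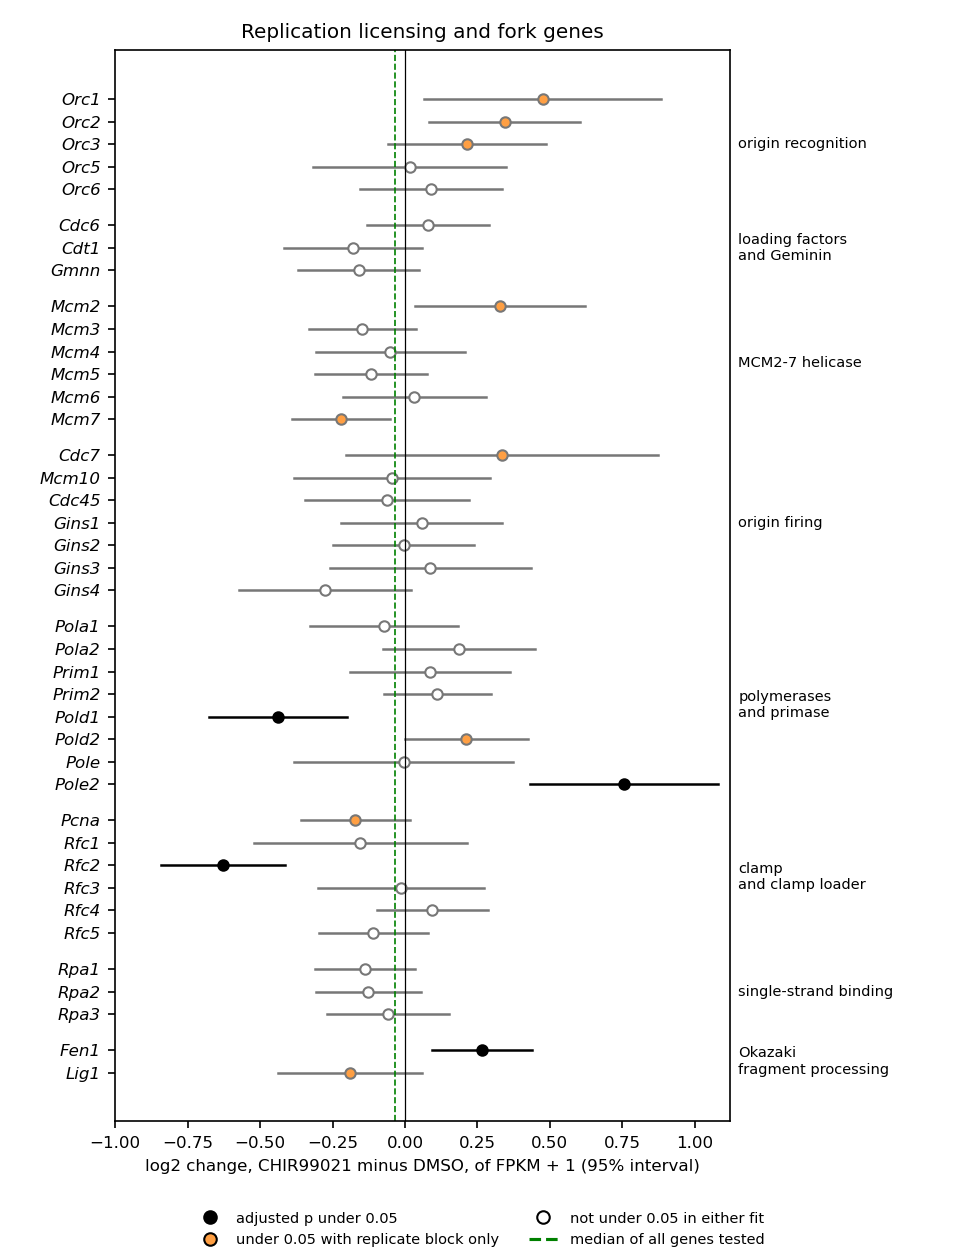
Log2 change of each gene (CHIR99021 minus DMSO, FPKM + 1) with its 95% interval from limma, grouped by role. Filled points are the 4 called genes Pole2, Fen1, Rfc2 and Pold1, orange points the 9 further genes called, in FPKM as deposited and all 6 libraries, with the replicate number as a block, and the dashed line is the median of all genes tested, -0.04.

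Libraries of the same replicate number deviated together from their group means, and the number was used to pair libraries across treatments. What libraries of the same number have in common is not described. With the number as a block in the fit, 8 of the 40 genes were called higher and 5 lower (32.5%), against 18.4% and 24.4% of all genes (42.8% in all). The 9 genes added were Orc1, Orc2, Orc3, Mcm2, Cdc7 and Pold2, higher, and Mcm7, Pcna and Lig1, lower. None of these 9 passed without the block in FPKM as deposited with all 6 libraries, and Orc1, Orc2, Mcm2 and Pold2 passed without it under another scaling or set of libraries. The balance of calls also depended on the scaling between libraries: of all calls, 37.9% were higher with FPKM as deposited, 52.3% with upper-quartile scaling and 51.2% with quantile scaling. Among the 40 genes, upper-quartile scaling called 4 higher and 2 lower (against 11.8% and 10.8%, together 22.6%, of all genes), and quantile scaling 5 higher and 2 lower (against 12.2% and 11.6%, together 23.8%). The block with upper-quartile scaling called 9 higher and 2 lower (against 24.3% and 20.7%, together 45.0%), and a fit without a variance trend 1 higher and 2 lower (against 6.80% and 12.5%, together 19.3%). Pole2, Fen1, Rfc2 and Pold1 were called with the same sign under both scalings.

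Among the 8 polymerase and primase genes, the called changes fell on 1 subunit each of polymerases epsilon and delta, in opposite directions. Pole2, which encodes the second subunit of polymerase epsilon (chromosome 12, 69201779 to 69228190, mm10), had 31.0, 32.5 and 37.4 FPKM in the CHIR99021 libraries 1 to 3, against 15.9, 22.7 and 20.4 FPKM in the DMSO libraries. Every treated library was above every control library. Pole2 rose 1.71-fold (log2 change 0.76 ± 0.14 SE, limma's adjusted p = 0.00858), the largest rise among the 40 genes. It was still called when each library was left out in turn (adjusted p = 0.00749 to 0.0434). Pole, the catalytic subunit of the same polymerase (chromosome 5, 110286319 to 110337453), averaged 16.1 ± 2.34 FPKM with CHIR99021 and 16.3 ± 3.41 with DMSO (SD, n = 3 each), and its groups overlapped (log2 change -0.0047, 95% interval -0.38 to 0.37). Within each library the log2 ratio of Pole2 to Pole, chosen after values were seen, was 1.152, 0.81 and 1.24 with CHIR99021, against 0.24, 0.18 and 0.42 with DMSO, so the ratio was higher in 3 of 3 numbers.

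Polymerase delta showed the other direction for its catalytic subunit. Pold1 (chromosome 7, 44532744 to 44548815) had 36.1, 42.8 and 36.1 FPKM with CHIR99021, against 51.4, 56.9 and 48.5 FPKM with DMSO. No treated library reached the lowest control library. Pold1 was 1.36-fold lower (log2 change -0.44 ± 0.10 SE, limma's adjusted p = 0.0214), and the call was lost without CHIR99021 replicate 1 (0.0651) or replicate 3 (0.0922). Pold2, which encodes the accessory subunit that binds POLD1 (chromosome 11, 5872180 to 5878256), had 59.6, 65.2 and 72.5 FPKM with CHIR99021, against 56.6, 54.6 and 58.2 FPKM with DMSO. Its treated libraries were all above the controls, and its adjusted p was 0.141, or 0.0408 with the replicate block and 0.0470 with quantile scaling. The within-library log2 ratio of Pold1 to Pold2, also chosen after values were seen, lay at -1.004 to -0.61 with CHIR99021 and at -0.26 to 0.06 with DMSO.

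Between the leading- and lagging-strand enzymes, the log2 ratio of the catalytic genes Pole to Pold1 averaged -1.26 ± 0.10 with CHIR99021 and -1.70 ± 0.22 with DMSO (SD, n = 3 each). The groups did not overlap, and the exact permutation test gave p = 0.1, the smallest that 3 against 3 libraries allow (adjusted p = 0.275 over the 22 ratios and shares tested). Genes of polymerase alpha and primase, which lay down the starting primers, did not pass in FPKM as deposited, with or without the block. Pola1, the catalytic subunit, averaged 12.4 ± 1.02 FPKM with CHIR99021 and 13.1 ± 1.16 with DMSO, and Pola2, its partner, 32.4 ± 2.27 and 28.5 ± 3.88 (SD, n = 3 each). Pola2 had an adjusted p of 0.288, or 0.0602 with the block, and was called higher with the block and upper-quartile scaling together (0.0208). Prim1, the primase catalytic subunit, averaged 38.9 ± 3.34 FPKM with CHIR99021 and 36.7 ± 5.20 with DMSO, and the large primase subunit Prim2 28.6 ± 0.551 and 26.4 ± 1.18. Of these, Prim2 had groups that did not overlap, with an adjusted p of 0.364.

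In the clamp loader, a single subunit gene stood out. Rfc2 (chromosome 5, 134582690 to 134598328) had 101, 90.4 and 97.2 FPKM with CHIR99021, against 164, 138 and 147 FPKM with DMSO. The highest treated library was well below the lowest control. Rfc2 was 1.55-fold lower (log2 change -0.63 ± 0.09 SE, limma's adjusted p = 0.00352), and was still called when each library was left out in turn (0.00425 to 0.0213). The other 4 loader genes did not pass: Rfc1, the large subunit that opens the clamp, averaged 18.4 ± 3.07 FPKM with CHIR99021 and 20.7 ± 3.88 with DMSO, and Rfc3, Rfc4 and Rfc5 had log2 changes of -0.01, 0.09 and -0.11. A share of the summed FPKM of Rfc1 to Rfc5 does not depend on scaling between libraries. Rfc2 made up 39.9% ± 2.202 of that sum with CHIR99021 and 49.97% ± 4.04 with DMSO (SD, n = 3 each). The shares did not overlap (exact permutation p = 0.1, adjusted p = 0.275). Since the shares add up to the whole, a lower Rfc2 share raises the other shares, and those are not read as changes of their own.

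The clamp gene Pcna (chromosome 2, 132249286 to 132253180) had the highest level of the 40 genes, at 411, 431 and 414 FPKM with CHIR99021, against 481, 486 and 449 FPKM with DMSO. All treated libraries were below all controls. The mean was 1.13-fold lower with CHIR99021, with an adjusted p of 0.172, or 0.0293 with the replicate block.

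**Figure D2:**
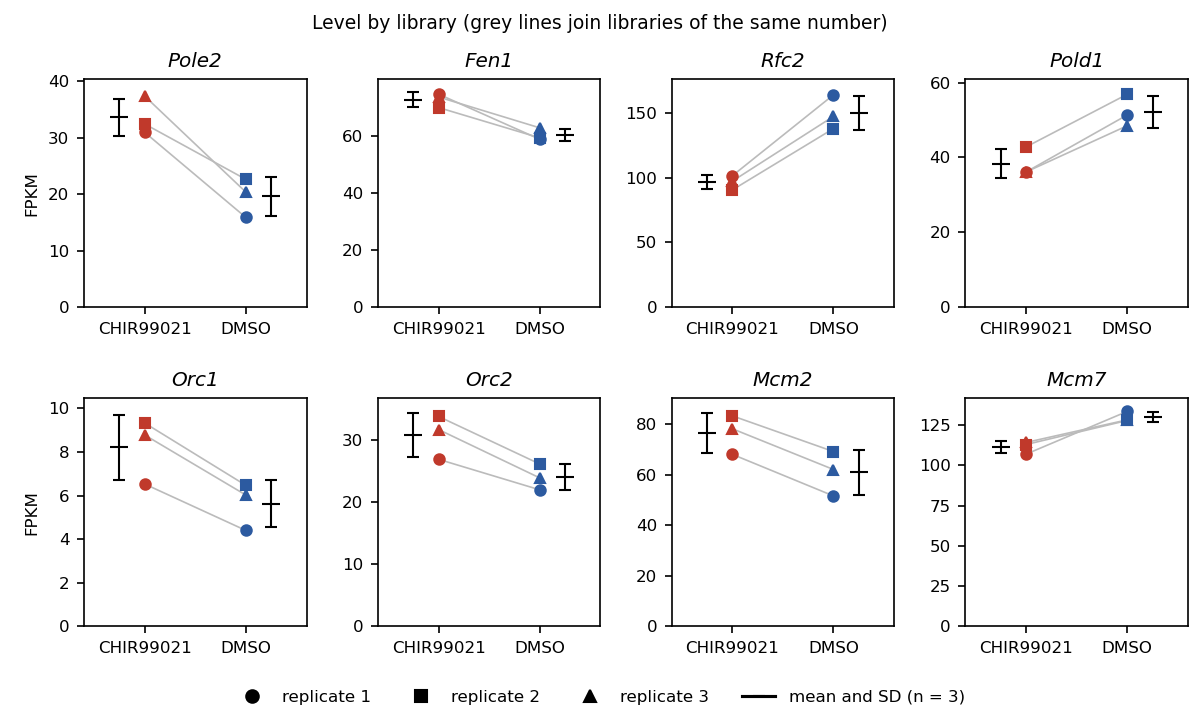
FPKM of 8 genes in each library, CHIR99021 left (red) and DMSO right (blue), with replicate numbers as symbols and the mean and SD (n = 3) beside them. Pole2, Fen1, Orc1 and Orc2 lie higher in every treated library, Rfc2, Pold1 and Mcm7 lower, and the Mcm2 groups overlap although each pair differs the same way.

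For Okazaki fragment processing, the flap nuclease gene was called higher and the ligase gene was not called. Fen1 (chromosome 19, 10199132 to 10203943) had 74.8, 70.0 and 73.8 FPKM with CHIR99021, against 58.9, 59.4 and 62.9 FPKM with DMSO. The groups did not overlap. Fen1 rose 1.21-fold (log2 change 0.27 ± 0.07 SE, limma's adjusted p = 0.0401), but the call was lost when any of the 6 libraries was left out (0.0735 to 0.141) and without a variance trend (0.0816). Lig1, which encodes DNA ligase I (chromosome 7, 13277313 to 13311427), had 57.2, 69.5 and 65.1 FPKM with CHIR99021, against 68.4, 81.5 and 69.4 FPKM with DMSO. Each treated library was below the control of its number, though the groups overlapped, and the adjusted p was 0.245, or 0.0405 with the replicate block. That paired call, like those of Mcm7 and Pcna, was not made once upper-quartile scaling was added.

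The 5 origin recognition genes listed had positive log2 changes, and none passed the unpaired test. Orc4, a further subunit counted among the other replication genes and named after its value was seen, had a log2 change of -0.03 (12.5 FPKM with CHIR99021 and 12.7 FPKM with DMSO). Orc1, the subunit whose level cycles in mammalian cells (chromosome 4, 108579454 to 108614831), had 6.53, 9.33 and 8.78 FPKM with CHIR99021, against 4.40, 6.47 and 6.03 FPKM with DMSO. The groups were separated by a narrow gap, and the paired differences were alike, at 0.48, 0.47 and 0.48 on the log2 scale. The ratio of means was 1.46, with an adjusted p of 0.0947, or 0.00414 with the replicate block and 0.0473 with quantile scaling. Orc2, a core subunit (chromosome 1, 58462771 to 58505109), had 26.9, 33.8 and 31.7 FPKM with CHIR99021, against 22.0, 26.1 and 23.9 FPKM with DMSO. Here too no library of one group entered the range of the other, and the adjusted p was 0.0670, or 0.00562 with the block, 0.0253 with upper-quartile scaling and 0.0426 without CHIR99021 replicate 1. Orc3 averaged 13.5 ± 1.28 FPKM with CHIR99021 and 11.5 ± 1.27 with DMSO (adjusted p = 0.237, or 0.0480 with the block), and its span overlaps that of Akirin2. Orc5 and Orc6 had log2 changes of 0.02 and 0.09 and overlapping groups, and that of Orc5 was -0.02 without both libraries numbered 2.

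Neither the loading factors nor their inhibitor passed in either fit. Cdc6 averaged 24.9 ± 1.22 FPKM with CHIR99021 and 23.5 ± 1.602 with DMSO, and Cdt1 28.6 ± 1.54 and 32.6 ± 3.68 (SD, n = 3 each). Gmnn, the gene of Geminin, averaged 38.3 ± 2.22 FPKM with CHIR99021 and 42.9 ± 3.22 with DMSO. Cdt1 and Gmnn were lower in 3 of 3 numbers, yet their groups overlapped (adjusted p = 0.259 and 0.249, or 0.0643 and 0.0912 with the block). The balance of licensing factor to inhibitor, the log2 ratio of Cdt1 to Gmnn, was -0.42 ± 0.01 with CHIR99021 and -0.40 ± 0.16 with DMSO (exact permutation p = 1.0). The log2 ratio of Cdc6 to Orc1 averaged 1.62 ± 0.31 with CHIR99021 and 2.08 ± 0.20 with DMSO, lower in 3 of 3 numbers but overlapping (exact permutation p = 0.2).

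In the MCM2-7 helicase, whose 6 subunits form the ring in equal numbers, the summed level of the genes overlapped between the groups, and so did the levels of Mcm2, Mcm4, Mcm5 and Mcm6. Summed over Mcm2 to Mcm7, the libraries had 573 to 636 FPKM with CHIR99021 and 591 to 675 FPKM with DMSO. Mcm2 (chromosome 6, 88883474 to 88898780) had 68.0, 83.3 and 78.1 FPKM with CHIR99021, against 51.6, 69.1 and 62.0 FPKM with DMSO. The groups overlapped slightly, while each treated library was above the control of its number (adjusted p = 0.105, or 0.00441 with the block and 0.0447 with upper-quartile scaling). Mcm7 (chromosome 5, 138164589 to 138171862) had 107, 113 and 114 FPKM with CHIR99021, against 134, 128 and 128 FPKM with DMSO. No treated library reached the controls, and the adjusted p was 0.0675, or 0.0202 with the block. Mcm3, Mcm4, Mcm5 and Mcm6 had log2 changes of -0.15, -0.05, -0.12 and 0.03 and passed in neither fit.

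As a share of the summed FPKM of the 6 genes, Mcm2 was the subunit with the largest shift. It made up 12.5% ± 0.616 with CHIR99021 and 9.54% ± 0.762 with DMSO (SD, n = 3 each). The share of Mcm7 was 18.3% ± 0.461 with CHIR99021 and 20.5% ± 1.88 with DMSO, and that of Mcm3 20.7% ± 0.453 and 22.0% ± 0.175. The difference in the Mcm7 share, -2.21 percentage points, was -1.17 without DMSO replicate 1. These 3 shares did not overlap between the groups (exact permutation p = 0.1 each, adjusted p = 0.275). Here too the shares add up to the whole, so a higher Mcm2 share lowers the other shares. The lower Mcm3 and Mcm7 shares are therefore not read as changes of their own. Mcm4 and Mcm2 had the lowest shares in both groups.

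**Figure D3:**
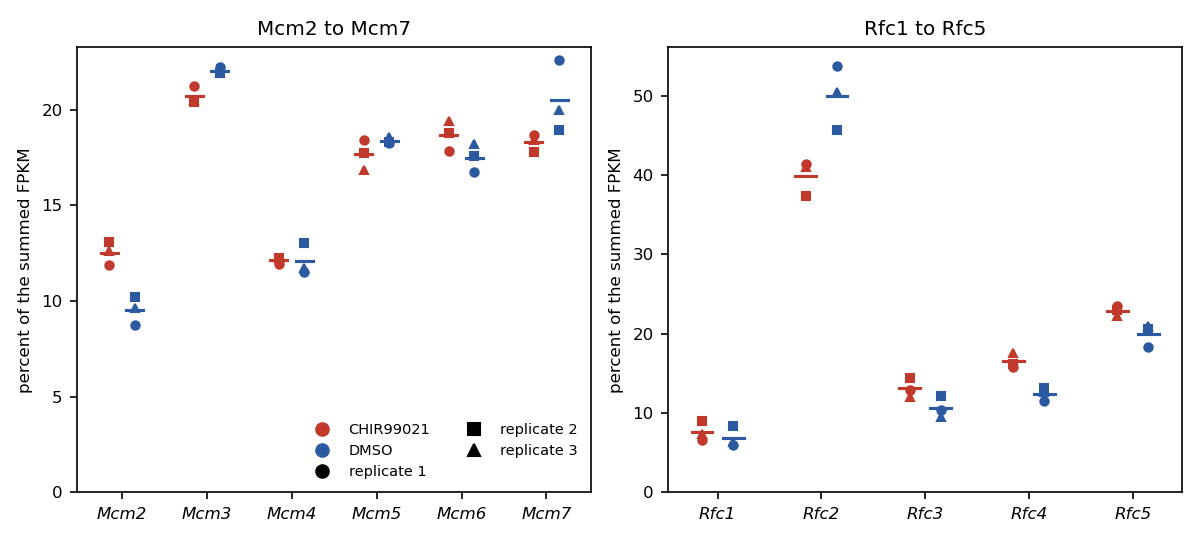
Share of each subunit gene in the summed FPKM of Mcm2 to Mcm7 (left panel) and Rfc1 to Rfc5 (right panel) in each library, CHIR99021 in red and DMSO in blue, with the group mean as a bar. Mcm2 had a mean share of 12.5% with CHIR99021, against 9.54% with DMSO, and Rfc2 of 39.9%, against 49.97% with DMSO.

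Origin-firing genes did not pass the unpaired test. Cdc7, the kinase gene (chromosome 5, 106964322 to 106984439), had 14.4, 23.4 and 14.9 FPKM with CHIR99021, against 12.5, 18.1 and 10.6 FPKM with DMSO. Library 2 was the highest in both groups, and each treated library was above the control of its number (adjusted p = 0.349, or 0.0151 with the block). Mcm10, which helps to activate the loaded helicase, averaged 20.5 ± 3.07 FPKM with CHIR99021 and 21.2 ± 3.51 with DMSO, and Cdc45 31.6 ± 2.25 and 33.3 ± 5.22. In the GINS complex, Gins1, Gins2 and Gins3 had log2 changes of 0.06, -0.0044 and 0.09 and overlapping groups. Gins4 had 18.0, 18.1 and 17.2 FPKM with CHIR99021, against 26.5, 20.3 and 19.0 FPKM with DMSO. Its groups did not overlap, but the first DMSO library stood apart and the adjusted p was 0.169, or 0.0553 with the block.

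The single-strand binding genes Rpa1, Rpa2 and Rpa3 had log2 changes of -0.14, -0.13 and -0.06. Rpa1, the largest subunit, averaged 114 ± 4.36 FPKM with CHIR99021 and 125 ± 3.68 with DMSO, and Rpa2 45.5 ± 2.67 and 49.7 ± 0.898 (SD, n = 3 each). The groups did not overlap for either gene, and neither passed in either fit (adjusted p = 0.223 and 0.294, or 0.0988 and 0.124 with the block). Rpa3 had a change of opposite sign with upper-quartile scaling, at 0.02. The shares of the 3 genes in their sum were alike, with Rpa1 at 50.2% ± 1.33 with CHIR99021 and 51.1% ± 0.605 with DMSO (exact permutation p = 0.6).

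Much of the spread of these genes followed the replicate number. For 22 of the 40 (55.0%), library 2 was the highest of its group both with CHIR99021 and with DMSO, against 27.7% of all genes tested. These included Cdc7, Mcm10, Rfc1, Pole, Cdc45 and Orc1. The pattern was not particular to the 40 genes. It held for 51.4% of the other replication genes, 55.6% of the checkpoint genes and 57.1% of the E2F and G1 to S regulators described below. For nucleotide supply genes it was 29.4% and for mitosis genes 24.1%. The direction of the difference was the same in 3 of 3 numbers for 27 of the 40 (67.5%), 12 higher and 15 lower, against 66.6% of all genes (29.3% higher and 37.3% lower). Without both libraries numbered 2, an alternative added after the values were seen, 1 of the 40 genes was called higher and 2 lower, Fen1 no longer being called (adjusted p = 0.0910). The share of all genes called in that fit is not given here, so these counts are not read against all genes.

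**Figure D4:**
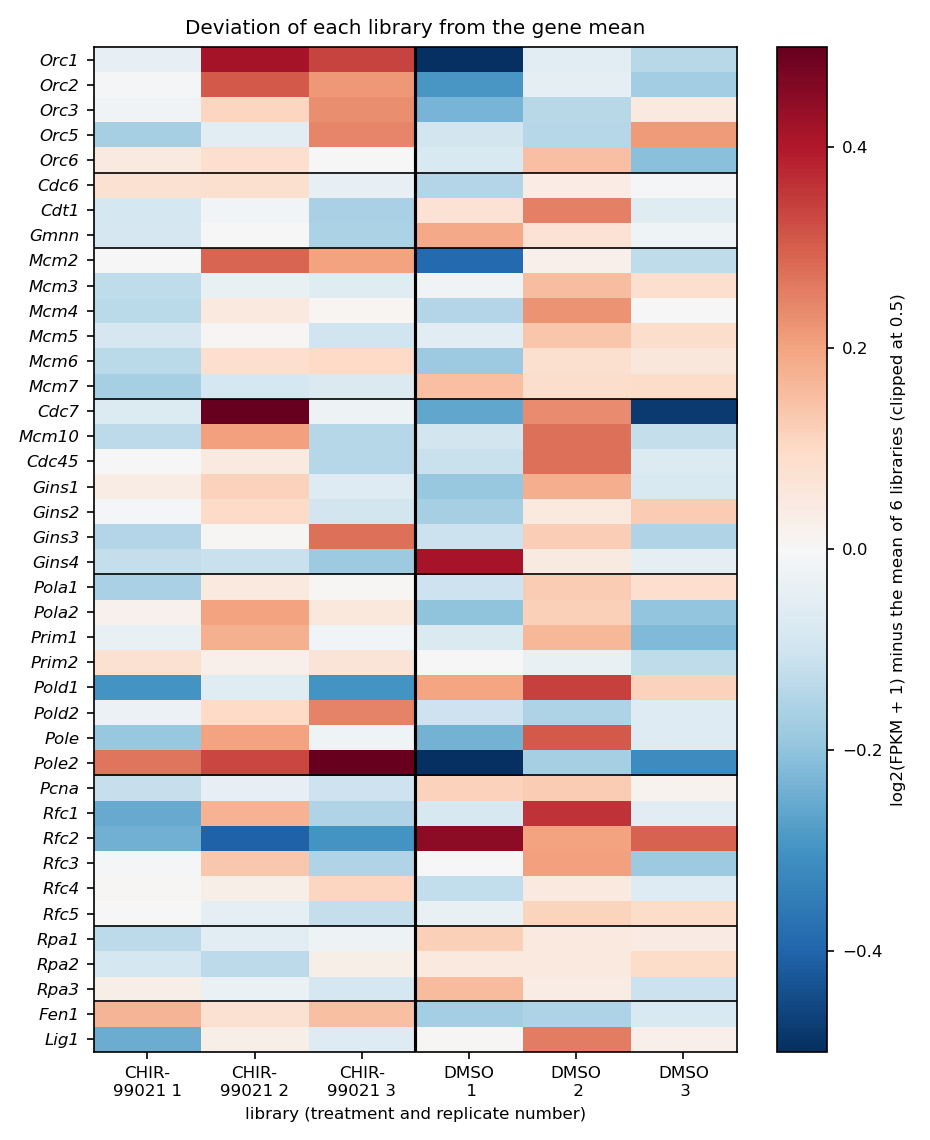
Deviation of log2(FPKM + 1) in each library from the mean of 6 libraries for each gene, CHIR99021 libraries left and DMSO libraries right of the thick line, with role groups divided by thin lines. Pole2 and Fen1 are red on the left and Rfc2 and Pold1 blue, while many rows are reddest in library 2 of both groups.

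Other genes of DNA replication, outside the 40, gave similar counts. Of 36 listed, 35 were tested, and 2 were called higher and 2 lower (11.4%, against 21.4% of all genes), or 6 and 7 with the replicate block (37.1%, against 42.8%). Pold4, which encodes the smallest subunit of polymerase delta, had 70.3, 53.8 and 58.6 FPKM with CHIR99021, against 213, 139.8 and 182 FPKM with DMSO. The groups were far apart, and Pold4 was 2.93-fold lower (log2 change -1.52 ± 0.17 SE, limma's adjusted p = 0.00111). Asf1b, a histone chaperone gene of the fork, was 1.33-fold lower (adjusted p = 0.00989). Those called higher were Top1, which encodes the topoisomerase that relieves the twist ahead of the fork (82.2 ± 7.001 FPKM with CHIR99021 and 46.7 ± 3.75 with DMSO, adjusted p = 0.00166), and the fork protection gene Tipin (129 ± 1.13 and 102 ± 1.13, adjusted p = 0.0140, or 0.0667 without CHIR99021 replicate 3).

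Among 18 checkpoint genes that guard the fork, 4 were called higher and 0 lower (22.2%, against 21.4% of all genes), or 7 and 2 with the block (50%, against 42.8%). Besides Tipin these were Cdc25a, a phosphatase gene of S phase entry (34.0 ± 3.17 FPKM with CHIR99021 and 22.9 ± 0.717 with DMSO, adjusted p = 0.00621), Atr and Rad1. Atr, the kinase gene of the replication checkpoint, averaged 9.19 ± 1.19 FPKM with CHIR99021 and 5.29 ± 0.749 with DMSO (adjusted p = 0.0127, or 0.0615 without CHIR99021 replicate 3). Rad1, a subunit gene of the checkpoint clamp, had an adjusted p of 0.0361, and lost its call without CHIR99021 replicate 2 or 3 or without DMSO replicate 1 or 3. With either scaling, 7 of the 18 genes were called higher and 0 lower. Of all genes, 8.13% were called higher in FPKM as deposited, 11.8% with upper-quartile scaling and 12.2% with quantile scaling. In either direction, 22.6% of all genes were called with upper-quartile scaling and 23.8% with quantile scaling. Between 1 and 4 of the 18 were called higher when a library was left out, beside 326 to 733 over all genes.

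Upstream of the replication genes, 2 of 21 E2F and G1 to S regulators were called higher and 3 lower (23.8%, against 21.4% of all genes), or 7 and 4 with the block (52.4%, against 42.8%). Either scaling gave 5 higher and 3 lower, against 22.6% of all genes called with upper-quartile and 23.8% with quantile scaling. E2f2, a gene of the activator E2F class, had 23.7, 20.9 and 18.8 FPKM with CHIR99021, against 45.7, 45.7 and 45.3 FPKM with DMSO. It was 2.15-fold lower in the treated cells (adjusted p = 0.000583, limma). Rbl2 and Tfdp2 were the other genes called lower (adjusted p = 0.0205 and 0.0248), and the cyclin gene Ccne1 was called higher beside Cdc25a (0.0334). Rbl2 kept its call without CHIR99021 replicate 2 or DMSO replicate 1, while Tfdp2 and Ccne1 kept theirs without CHIR99021 replicate 1 or DMSO replicate 2, and all 3 lost it without any of the other 4 libraries.

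Nucleotide supply genes, which make the building blocks of RNA and DNA, were called higher for 7 of 17 and lower for 0 (41.2%, against 21.4% of all genes). With the block the counts were 11 and 2 (76.5%, against 42.8%). Of all genes, 8.13% were called higher in FPKM as deposited and 18.4% with the block. Impdh2, of guanine nucleotide synthesis, averaged 473 ± 49.2 FPKM with CHIR99021 and 306 ± 15.5 with DMSO (adjusted p = 0.00518). Dck, a salvage kinase gene, averaged 49.5 ± 2.16 FPKM with CHIR99021 and 34.8 ± 3.02 with DMSO (adjusted p = 0.00817), and Atic, a purine synthesis gene, 117 ± 9.43 and 83.4 ± 8.98 (0.0166, and not called without CHIR99021 replicate 2 or 3, where it was 0.0742 at most). Leaving out a library gave 2 to 8 genes called higher in this list, beside 326 to 733 over all genes. Log2 changes were positive for 12 of the 17 genes and negative for 5. Those 5, none called, were Rrm1 (-0.06), Rrm2 (-0.02), Tyms (-0.22), Tk1 (-0.21) and Dtymk (-0.04). With the block, Tyms and Tk1 were called lower (limma's adjusted p = 0.0461 and 0.0181).

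Mitosis genes were called lower for 11 of 29 and higher for 0 (37.9%, against 21.4% of all genes), or 15 and 0 with the block (51.7%, against 42.8%). Of all genes, 13.3% were called lower in FPKM as deposited. The count of mitosis genes called lower depended on the scaling. It was 4 of 29 with upper-quartile scaling, against 10.8% of all genes, and 7 of 29 with quantile scaling, against 11.6%. Leaving out a library gave 2 to 8, beside 743 to 1300 over all genes. Kif23, a motor gene of cytokinesis, averaged 28.9 ± 2.41 FPKM with CHIR99021 and 46.5 ± 3.07 with DMSO (adjusted p = 0.00317). Ndc80, a kinetochore gene, averaged 15.8 ± 1.71 FPKM with CHIR99021 and 23.5 ± 1.85 with DMSO (adjusted p = 0.0123), and the spindle motor gene Kif11 32.1 ± 1.496 and 42.7 ± 3.46 (0.0183, and not called without CHIR99021 replicate 1 or 3, where it was 0.0813 at most). Whether any of these lists differs from the 40 genes was not tested.

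**Figure D5:**
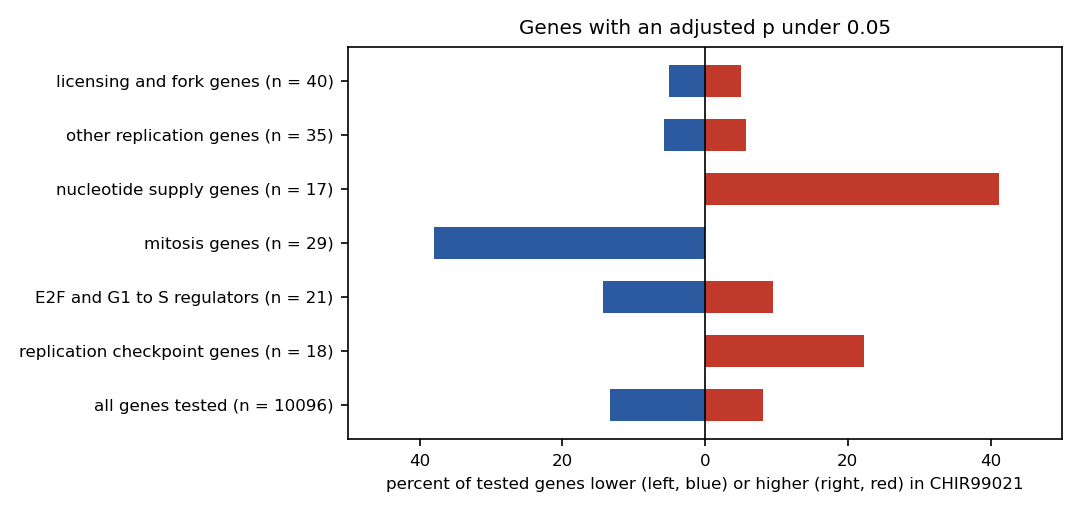
Percent of the tested genes of each list called lower (left, blue) or higher (right, red) with CHIR99021 at an adjusted p under 0.05. The 40 licensing and fork genes had 2 calls in each direction, nucleotide supply genes 7 higher and 0 lower, and mitosis genes 0 higher and 11 lower.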

How the data were processed

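Messenger RNA libraries (TruSeq Stranded mRNA kit, per the labels) were made from 6 cultures. The authors deposited 1 table per library with a gene FPKM and its confidence limits, per the file headers, and cutadapt 1.12, TopHat2 2.1.1, Cufflinks 2.2.1 and build mm10 are named in the submitters' processing notes. The sources used here do not state the annotation or strand setting, so genes with overlapping spans are less certain. FPKM are not counts, the depth is unknown, and no count model was used.

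The 10096 entries with a mean of 1 FPKM or more were tested as log2(FPKM + 1) with limma 3.58.1 in R 4.3.3 (eBayes with a variance trend), two-sided, with Benjamini-Hochberg adjustment over all entries and a threshold of 0.05. The script was tested on simulated data. Deviations from the group means correlated at 0.490 to 0.535 between libraries of the same number, and the pairing by number rests on this alone. If the cultures share a source, p-values measure the spread between these cultures. No pair of libraries was identical. Ratios and shares within a library were compared by exact permutation tests, two-sided. Starts count from 1. Alternatives were other pseudocounts, filters and scalings, no trend, the replicate block and leaving out each library.

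The 40 genes and the other lists were chosen with earlier results of these data known. All 40 are described, with Gsk3a and Gsk3b, and of each other list up to 3 genes with the smallest adjusted p under 0.05 in each direction. Beyond this rule, Orc4, Rad1, Rrm1, Rrm2, Tyms, Tk1 and Dtymk are named. The ratios of Pole2 to Pole and Pold1 to Pold2 were chosen after their values were seen, as were the single marker genes named. The result of 1 marker gene is not reported here. Supt16h was not found under that symbol. Promoter windows are from RefSeq, 32 of 40 genes matching. Protein sequences were not used here. Tables were read with Python 3.11.15, pandas 2.3.3 and numpy 2.4.6 and drawn with matplotlib 3.10.9.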

Additional observations from a re-analysis of the deposited data

How the results depend on the processing

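Pole2 and Rfc2 were called in the same direction under every alternative run, and Pold1 under every one except leaving out CHIR99021 replicate 1 or 3, as given above. The other pseudocounts and filters changed no call among the 40 genes. The number of genes called over all genes was 4321 with the replicate block, 4541 with the block and upper-quartile scaling, and 1069 to 2038 when 1 library was left out. Genes of the 40 called higher numbered 8 with the block, 9 with the block and upper-quartile scaling, 4 with upper-quartile scaling, 5 with quantile scaling, 1 without a variance trend, 1 without replicate 2, and 1 to 2 without single libraries. Those called lower numbered 5 with the block and 1 to 2 without single libraries. The median log2 change of the 40 genes was 0.062 with upper-quartile scaling, with or without the block, 0.0451 with quantile scaling and -0.0708 to 0.069 without single libraries. In FPKM as deposited, the block changed no call among the 40 genes beyond the 9 given above, and with upper-quartile scaling it also added Pola2 (adjusted p = 0.0208). The cause of these differences was not tested.

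Small changes turned sign, none of them called. With upper-quartile scaling, with or without the block, the log2 change was 0.0226 for Mcm4, 0.0265 for Mcm10, 0.0092 for Cdc45, 0.0677 for Gins2, 0.0654 for Pole, 0.0587 for Rfc3 and 0.0158 for Rpa3. With quantile scaling it was 0.0098 for Mcm10, 0.0506 for Gins2, 0.0037 for Pola1, 0.0621 for Pole and 0.0395 for Rfc3. Without replicate 2 it was -0.0197 for Orc5, 0.0110 for Mcm4, 0.0176 for Cdc45, 0.0453 for Pole and 0.0134 for Rfc3, and 0.192 for Gins3 with its sign kept. Leaving out single libraries gave ranges of -0.1032 to 0.1251 for Orc5, -0.1366 to 0.0477 for Mcm4, -0.0516 to 0.1077 for Mcm6, -0.1592 to 0.0819 for Mcm10 and -0.1348 to 0.0586 for Cdc45. It gave -0.022 to 0.1633 for Gins1, -0.0894 to 0.0577 for Gins2, -0.0279 to 0.1835 for Gins3, -0.0053 to 0.1896 for Prim1, -0.1236 to 0.1474 for Pole, -0.1082 to 0.085 for Rfc3 and -0.1257 to 0.0062 for Rpa3. The difference in share ranged from -0.23 to 0.54 percentage points for Mcm4, -0.73 to 0.32 for Rpa2 and -0.50 to 3.85 for Gins2, and that of the log2 ratio of Cdt1 to Gmnn from -0.0846 to 0.0677.

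With 3 libraries a group, half-widths of the 95% intervals without the pairing ran from 0.17 to 0.54 log2 units. These intervals are not adjusted for the number of genes tested, so a call could need a larger change. The intervals of Orc1, Orc2, Mcm2 and Mcm7 lay wholly above or below no change, yet these genes were not called. An FPKM depends on the annotated length and on the other transcripts of its library, and the spans of Orc3, Orc5, Mcm7, Gins2, Pold2, Rfc4 and Lig1 overlap other entries.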
